A study of Glycine max with 4 samples.

Results

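Sites bound on soybean chromosomes 10 and 20, which carry duplicated arms, were taken from a ChIP-seq experiment (chromatin immunoprecipitation and sequencing), where an antibody pulls down the DNA a protein sits on. Every peak on either chromosome was a member, and a shared site was a replicate 1 peak with an overlap of 1 bp or more with a peak of replicate 2. Replicate 1 held 2878 peaks on the 2 chromosomes of 31090 in all, and replicate 2 held 2355 of 25502. Of the 22386 shared sites in the genome, 2062 lay here, with 1178 on chromosome 10 and 884 on chromosome 20. The study used Williams 82 embryos at the early maturation stage, dissected from seeds of 6 to 7 mm, with an antibody against amino acids 188 to 202 of the protein encoded by GLYMA.07G038400. It has 2 ChIP libraries and 2 input libraries of total chromatin, the inputs entering only through the peak calling of the authors. There was no treatment, mutant or mock precipitation, so sites that the antibody recovers without its target cannot be told apart from bound ones.

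The deposited peak names carry the abbreviation GRF5. In plants GRF stands for growth-regulating factor. Members of this family are transcription factors that bind DNA through a zinc-finger domain, work with coactivator partners and are known from Arabidopsis to promote cell proliferation in growing organs. Soybean descends from an ancestor whose whole genome was doubled, so that many chromosome arms still have a counterpart elsewhere with copies of the same genes in similar order. Early maturation is the phase in which the embryo turns from cell division to the filling of its storage cells. In soybean chromosomes genes lie mainly towards the ends, and the middle is rich in repeats. How evenly this pair of chromosomes is occupied was examined end by end. The duplicated stretches were not placed, so the ends compared need not be counterparts by descent. Genes, motifs and sequences under the peaks were not examined, since the assembly the authors used is not named in the labels and no genome of it was at hand. Positions are 1-based on that assembly, and a chromosome was taken to end with its last peak, at 51514731 on chromosome 10 and 47901309 on chromosome 20.

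Both chromosomes were recovered about as well as the genome. On chromosome 10, 72.7% of the 1621 replicate 1 peaks overlapped a replicate 2 peak, and on chromosome 20 it was 70.3% of 1257, where the genome gave 72.0%. In the other direction, 90.3% of the 1333 replicate 2 peaks on chromosome 10 and 88.9% of the 1022 on chromosome 20 had a counterpart, where the genome gave 89.8%. The median peak rested on 33 overlapping ChIP fragments on both chromosomes in replicate 1, and on 26 and 27 fragments in replicate 2. These fragment numbers were recovered from the deposited fold and p-value of each peak. The fewest fragments under a peak were 14 on both chromosomes in replicate 1, and 11 on chromosome 10 and 12 on chromosome 20 in replicate 2. Intervals given below cover counting error only.

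Chromosome 10 carried many sites at both ends, and chromosome 20 mainly at its last end. In the first 25% of the length, chromosome 10 held 41.1 (replicate 1) and 33.9 (replicate 2) peaks per Mb, and chromosome 20 held 17.4 and 13.9. The lower chromosome 10 library was thus well above the higher chromosome 20 library. The ratio of chromosome 10 to 20 was 2.36 in replicate 1 and 2.45 in replicate 2. Shared sites gave 29.9 per Mb (385 sites, 95% exact Poisson interval 27.0 to 33.0) against 11.9 (142 sites, 9.99 to 13.98), a ratio of 2.52. In the last 25%, the libraries gave 71.5 and 58.8 peaks per Mb on chromosome 10 and 68.4 and 56.5 on chromosome 20, so chromosome 10 was slightly higher within each library, with ratios of 1.05 and 1.04. Shared sites there numbered 667, or 51.8 per Mb (47.9 to 55.9), and 591, or 49.3 per Mb (45.5 to 53.5). The interval of each last end contains the other chromosome's value. Each library gives a value for both chromosomes. An exact two-sided permutation test of all peaks per Mb that keeps this pairing gave 0.5 at both ends, the smallest p it allows with 2 libraries. Without the pairing the exact test gave 0.333, its smallest p, at the first end and 0.667 at the last. No difference between the chromosomes can therefore pass 0.05 in this design, and the libraries are given side by side instead.

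**Figure D1:**
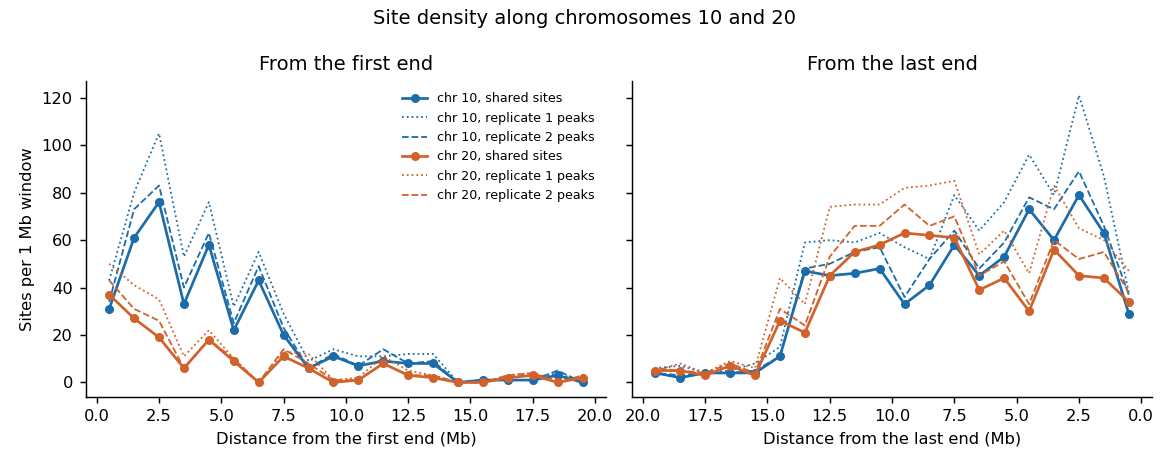
Shared sites (solid lines with points) and all peaks of replicate 1 (dotted) and replicate 2 (dashed) in windows of 1 Mb, plotted against the distance in Mb from the first end (left) and the last end (right) of chromosome 10 (blue) and chromosome 20 (orange). Chromosome 10 lies above chromosome 20 from 1 to 8 Mb at the first end, while at the last end both fall to at most 7 shared sites per window beyond 15 Mb.

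The contrast at the first end began within the outermost windows. The first 3 Mb held 168 shared sites on chromosome 10, with 31, 61 and 76 in successive windows of 1 Mb, and 83 on chromosome 20, with 37, 27 and 19. The outermost window was thus the one in which chromosome 20 was not behind. From 3 to 8 Mb chromosome 10 still carried 35.2 shared sites per Mb (95% exact Poisson interval 30.2 to 40.8) and chromosome 20 carried 8.80 (6.39 to 11.8). Over this stretch replicate 1 had 245 and 56 peaks and replicate 2 had 200 and 48. Past 8 Mb both thinned out, with 33 and 15 shared sites from 8 to 12 Mb.

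At the last end the chromosomes had like totals but different profiles. Within 14 Mb of the end there were 720 shared sites on chromosome 10 and 657 on chromosome 20. In the outer 3 Mb chromosome 10 led with 57.0 per Mb (48.8 to 66.2) against 41.0 (34.1 to 48.9), and the replicates gave 82.0 and 64.0 peaks per Mb against 57.3 and 48.3. From 8 to 12 Mb the order was the opposite, with 168 shared sites on chromosome 10 (interval 35.9 to 48.9 per Mb) and 238 on chromosome 20 (52.2 to 67.6 per Mb). Replicates 1 and 2 had 231 and 200 peaks on chromosome 10 there, and 315 and 273 on chromosome 20. In both blocks the libraries of the chromosomes did not overlap. The intervals of the shared sites met between 48.8 and 48.9 per Mb in the outer block and were apart in the inner one. These blocks were chosen after the profiles had been seen. On both chromosomes the dense stretch ended near 15 Mb from the last end. From 15 to 20 Mb, 18 and 23 shared sites were left.

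The middle was thin on both chromosomes. The central 50% held 126 shared sites on chromosome 10, or 4.89 per Mb (4.07 to 5.82), and 151 on chromosome 20, or 6.30 per Mb (5.34 to 7.39). All peaks gave 6.64 and 5.40 per Mb on chromosome 10 in replicates 1 and 2, and 9.60 and 7.47 on chromosome 20, so chromosome 20 was higher in both. Part of this comes from where the boundary falls, since 64 of the 126 and 92 of the 151 sites lay within 15 Mb of the last end, on the dense stretch. More than 15 Mb from both ends, each chromosome had 54 shared sites, which is 2.51 per Mb (1.89 to 3.27) on chromosome 10 and 3.02 (2.27 to 3.94) on chromosome 20. The longest stretch between neighbouring shared summits spanned 2.44 Mb on chromosome 10, from 20278070 to 22720871, and 2.71 Mb on chromosome 20, from 13860085 to 16567054. Neither contained an unshared peak in either replicate. Of the 51 complete windows of 1 Mb on chromosome 10, 10 had at least 50 shared sites. They held 54.6% of the sites in complete windows. On chromosome 20, 6 of the 47 complete windows reached this limit and held 40.8%. No such count is given for the other chromosomes, so whether these numbers are unusual was not tested. The densest windows were 47 to 48 Mb on chromosome 10, with 80 shared sites, and 39 to 40 Mb on chromosome 20, with 62. Another window on chromosome 10 also had 80.

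**Figure D2:**
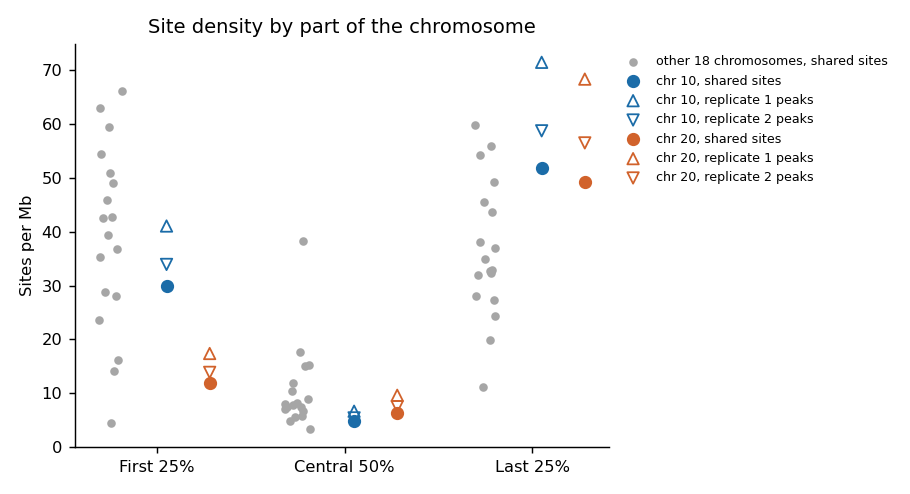
Sites per Mb in the first 25%, the central 50% and the last 25% of each chromosome. Filled circles are shared sites and open triangles all peaks of replicate 1 (pointing up) and replicate 2 (pointing down) on chromosome 10 (blue) and chromosome 20 (orange), and grey points are shared sites on the other 18 chromosomes. Chromosome 20 is near the bottom of the range at its first end, with 11.9 shared sites per Mb, and both chromosomes are near the top at their last ends, with 51.8 and 49.3.

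Set beside the other 18 chromosomes, the pair was alike at the last end and unlike at the first. Shared-site density in the last 25% ranked 4 of 20 on chromosome 10 and 5 of 20 on chromosome 20, where the others ranged from 11.1 to 59.9 per Mb. In the first 25% chromosome 10 ranked 13 and chromosome 20 ranked 19, where the others ranged from 4.46 to 66.2. The ratio of last to first density was 1.73 on chromosome 10, rank 5 of 20, and 4.16 on chromosome 20, rank 2. The others ranged from 0.227 to 13.4, with a median of 0.878. The ends as a whole were 8.35 times as dense as the central 50% on chromosome 10, rank 2 of 20, and 4.85 times on chromosome 20, rank 8. Over the full length chromosome 10 had 22.9 shared sites per Mb and chromosome 20 had 18.5, against 24.1 ± 5.09 on the others (SD, n = 18). Which end is named first follows the numbering of the assembly, so these ranks compare ends by number and not by descent. Gene density and the share of sequence to which reads can be aligned were not examined, and their part in these densities was not tested. The background under the shared sites of the first 25%, which the peak caller takes from the input, had a median of 4.30 fragments on both chromosomes in replicate 1. Under their replicate 2 counterparts it was 2.98 on both. It was recovered only under called peaks and gives no value for stretches without them.

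Spacing followed density at the first end and was close at the last. In the first 25%, the median gap between neighbouring summits was 7.58 kb in replicate 1 and 9.23 kb in replicate 2 on chromosome 10, and 14.6 and 18.8 kb on chromosome 20. Shared sites there were a median of 11.5 kb apart on chromosome 10 (interquartile range 3.37 to 32.0) and 21.8 kb on chromosome 20 (3.19 to 71.2). The lower quartiles were close and the upper quartiles far apart, so the chromosomes differed in their long gaps. In the last 25% the median gap between shared sites was 9.75 kb on chromosome 10 (3.20 to 24.9) and 9.78 kb on chromosome 20 (3.03 to 26.9). The smallest gap was 316 bp on chromosome 10 and 376 bp on chromosome 20.

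**Figure D3:**
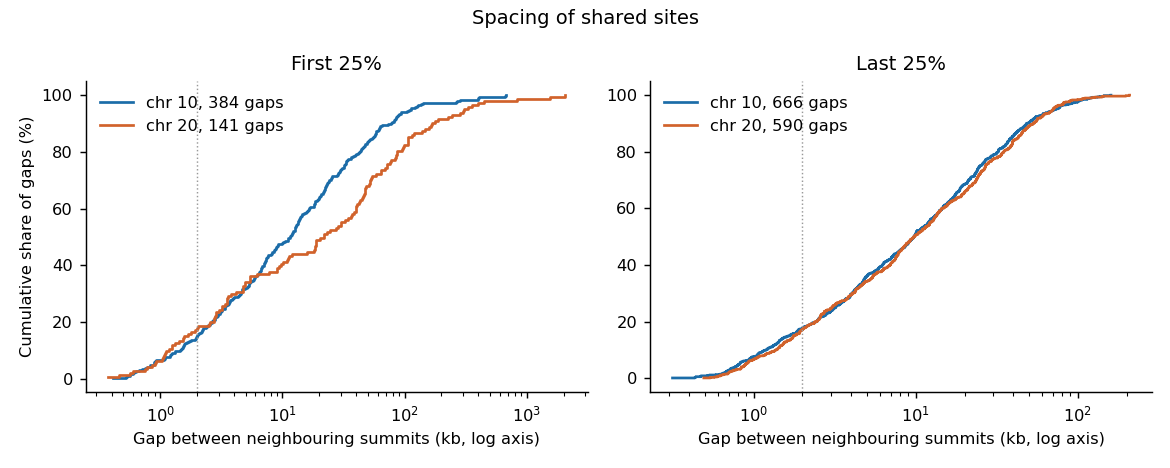
Cumulative share (%) of the gaps between neighbouring shared summits up to a given length in kb (log axis), in the first 25% (left) and the last 25% (right) of chromosome 10 (blue) and chromosome 20 (orange), with a dotted line at 2 kb. The curves lie on each other in the last 25%, where the medians are 9.75 and 9.78 kb, and part beyond about 5 kb in the first 25%.

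Over their whole lengths the chromosomes had like shares of close neighbours, while in the central 50% the share at shared sites was higher on chromosome 10. A further shared site within 2 kb was present for 363 sites on chromosome 10, or 30.8% (95% Wilson interval 28.2 to 33.5), and for 252 on chromosome 20, or 28.5% (25.6 to 31.6), where all 20 chromosomes gave 30.0%. The intervals overlap, and among all peaks of replicate 1 the order was the opposite, with 36.8% and 37.5%. At the first ends, where density differed most, the shares were 28.1% (23.8 to 32.7) and 29.6% (22.7 to 37.5). In the central 50% they were 38 of 126 sites on chromosome 10, or 30.2% (22.8 to 38.7), and 28 of 151 on chromosome 20, or 18.5% (13.2 to 25.5). The counterparts in replicate 2 gave 32.0% and 19.6% there. The ratio was 1.63 in both, but the counterparts are the peaks that overlap these same sites. A like ratio is thus favoured by the overlap rule, and the counting intervals overlap. Over all peaks of the central 50% the shares were 34.5% and 35.2% in replicate 1, and 30.2% and 23.5% in replicate 2. More than 15 Mb from both ends, 11 of 54 shared sites on chromosome 10 had a close neighbour, or 20.4% (11.8 to 32.9), and 4 of 54 on chromosome 20, or 7.41% (2.92 to 17.6). Sites spaced by at most 2 kb formed 164 runs on chromosome 10 and 111 on chromosome 20, of which 136 and 88 were pairs. The run with the most sites on chromosome 10 held 5 between 7910879 and 7916112, with folds from 6.05 to 20.7 in replicate 1 and from 8.34 to 21.6 in replicate 2. Chromosome 20 had 2 runs of 5, at 46573981 to 46577967 and at 37488427 to 37493448. In the former the folds reached 16.9 in replicate 1 and 13.9 in replicate 2, and in the latter 14.01 and 12.5.

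Sites on chromosome 10 were slightly weaker than those on chromosome 20. Strength is the fold enrichment over background that the authors' peak caller gave each peak, a linear ratio. At shared sites the median fold on chromosome 10 was 7.52 in replicate 1 (interquartile range 5.52 to 11.3) and 6.77 in replicate 2 (5.13 to 9.95). On chromosome 20 it was 8.00 (5.73 to 12.1) and 7.23 (5.35 to 10.3). The ratio of the medians was 0.940 in replicate 1 and 0.937 in replicate 2, so chromosome 10 was the lower in both libraries. The replicate 2 values are those of the peaks that overlap these same sites, so a like ratio is favoured by the overlap rule. Among 20 chromosomes, chromosome 10 had the lowest median in replicate 1, where the others ranged from 7.63 to 8.28, and ranked 16 in replicate 2, where they ranged from 6.69 to 7.12. Chromosome 20 ranked 6 and 1. Over all peaks of each replicate the ratios were 0.983 and 0.952.

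At shared sites chromosome 10 had the lower median fold in all 3 parts in both replicates. In the last 25% the medians were 7.48 and 6.69 on chromosome 10 in replicates 1 and 2, and 7.74 and 7.17 on chromosome 20. In the first 25% they were 7.62 and 6.96, and 9.08 and 7.33. The ratio of chromosome 10 to 20 was thus 0.839 at the first end and 0.966 at the last in replicate 1, but 0.9495 and 0.933 in replicate 2. In the central 50% the medians were 7.50 and 6.80 on chromosome 10 and 8.12 and 7.42 on chromosome 20, with ratios of 0.924 and 0.917. Over all peaks of the central 50%, chromosome 10 was the higher in replicate 1, with 6.63 against 6.20. In replicate 2 it was the lower, with 6.46 against 6.64. Strong sites, with a fold of at least 10 in both replicates, numbered 236 on chromosome 10, or 20.03% (95% Wilson interval 17.8 to 22.4), and 197 on chromosome 20, or 22.3% (19.7 to 25.1), where the genome gave 22.5%. Within 15 Mb of the last end they were 148 of 731 sites on chromosome 10, or 20.2% (17.5 to 23.3). On chromosome 20 they were 147 of 683 there, or 21.5% (18.6 to 24.8). In the central 50% they made up 16 of 126 sites on chromosome 10, or 12.7% (7.97 to 19.6), and 42 of 151 on chromosome 20, or 27.8% (21.3 to 35.4). These intervals do not overlap, but they count sites that share their libraries, and the limit for strong sites was set after the values were seen. More than 15 Mb from both ends the counts were 5 of 54, or 9.26% (4.02 to 19.9), and 12 of 54, or 22.2% (13.2 to 34.9), where the intervals do overlap.

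**Figure D4:**
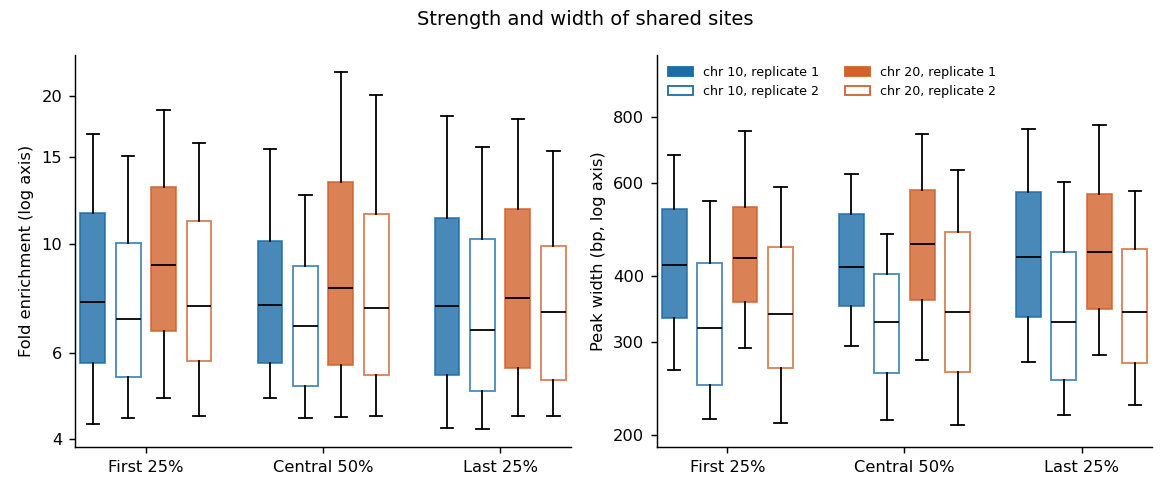
Fold enrichment (left, log axis) and width in bp (right, log axis) of the shared sites by part of the chromosome, for chromosome 10 (blue) and chromosome 20 (orange). Filled boxes are replicate 1 and open boxes the counterpart in replicate 2, with the median, the interquartile range and whiskers that leave out the lowest and the highest 10%. The boxes of the chromosomes overlap in every part, and those of replicate 2 lie lower in both measures.

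Sites on chromosome 10 were slightly narrower than those on chromosome 20. The median width of shared sites was 426 bp in replicate 1 and 325 bp in replicate 2 on chromosome 10, and 446 and 339 bp on chromosome 20. The chromosome 10 sites were thus 20 bp and 14 bp narrower in replicates 1 and 2. On both, replicate 1 peaks were wider, with a median of 1.26 and 1.25 times the width of their counterparts. At like strength, with folds from 5 to 10, the medians were 390 and 312 bp against 410 and 318 bp. When peaks of −log10 q under 10 were left out, the difference of chromosome 10 minus chromosome 20, averaged over the replicates, went from -17 bp to -1.5 bp. Widths of at least 800 bp in replicate 1 were found at 86 sites on chromosome 10, or 7.30% (95% Wilson interval 5.95 to 8.93), and at 81 on chromosome 20, or 9.16% (7.43 to 11.3), where the genome gave 6.97%. The widest shared site on chromosome 10 spanned 1905 bp at 44444539 to 44446443, with folds of 28.8 and 14.1, and overlapped 2 replicate 2 peaks. On chromosome 20 it spanned 2329 bp at 36894677 to 36897005, with folds of 19.0 and 16.7, and was 2107 bp wide in replicate 2. More than 1 overlapping replicate 2 peak was seen at 28 sites on chromosome 10 and 26 on chromosome 20, or 2.38% and 2.94%, where the genome gave 2.39%.

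The replicates matched each other to a like degree on both chromosomes. Spearman's rho of the folds across sites was 0.73 on chromosome 10 and 0.74 on chromosome 20, as a description over 1178 and 884 sites that share their libraries. At 95.2% and 95.1% of the sites the folds differed by no more than 2-fold. They were higher in replicate 1 at 60.02% and 59.8%, where the genome gave 61.5%. The summits of the replicates lay a median of 30 bp apart on chromosome 10 and 29 bp apart on chromosome 20.

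**Figure D5:**
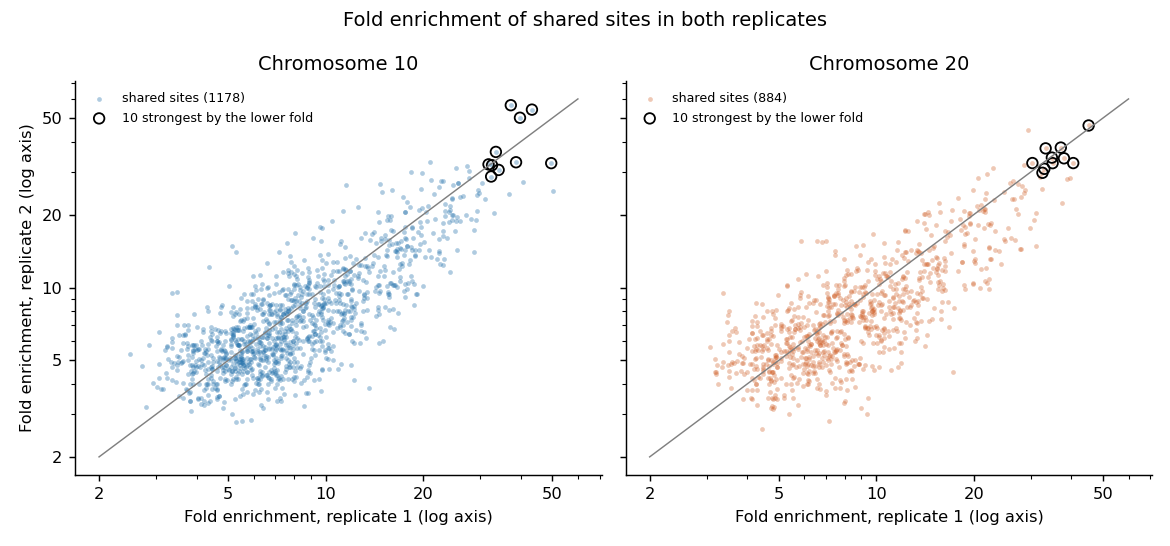
Fold enrichment of each shared site in replicate 1 (horizontal, log axis) and replicate 2 (vertical, log axis) on chromosome 10 (left, 1178 sites) and chromosome 20 (right, 884 sites), with the line of equal folds. Open circles mark the 10 sites with the highest lower fold, which lie closer to the line on chromosome 20, where their SD between replicates averaged 1.99 against 5.27 on chromosome 10.

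Most of the strongest sites lay within 15 Mb of the last end, as did most shared sites. Sites were ranked by their lower fold, and 8 of the 10 strongest on chromosome 10 lay in the last 25%, which held 56.6% of its shared sites, and 2 in the first. On chromosome 20, 3 lay in the last 25%, which held 66.9%, and 2 in the first, and the other 5 lay between 33853208 and 35767935, within 15 Mb of the last end, a stretch that held 77.3% of its shared sites. The lower folds ran from 28.7 to 43.3 on chromosome 10 and from 29.7 to 45.2 on chromosome 20. Among these sites the replicates differed more on chromosome 10, with an SD that averaged 5.27 and reached 13.6, against 1.99 and 5.58. Over all shared sites, the SD across sites of the log2 ratio of the folds was 0.487 on chromosome 10 and 0.494 on chromosome 20. This is a different measure from the SD of linear folds at single sites, so the values cannot be set against each other. Summits differed by at most 29 bp among the 20 strongest sites.

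On chromosome 10, the first was at 50229024 to 50229963, with folds of 43.3 and 54.2 in replicates 1 and 2. Beneath its summit were 192 fragments in replicate 1 (95% exact Poisson interval 166 to 221) and 183 in replicate 2 (157 to 212). The second, at 8641659 to 8642595, had folds of 39.8 and 50.2. It lay on the thinning part of the first arm, in a window of 1 Mb with 6 shared sites, 45.0 kb from the nearest one. The third, at 41895665 to 41896657, had folds of 37.3 and 56.5, on 233 (204 to 265) and 200 (173 to 230) fragments. Its background was 5.28 fragments in replicate 1 and 2.56 in replicate 2. Read totals of the libraries were not given, and the cause of the difference in fold was not tested. A site at 47328472 to 47329051 differed the other way, with folds of 49.6 and 32.6. Close together on the last arm lay 3 of the 10, at 50140599 to 50141286, at 50145994 to 50147223 and the first of all. Their mean folds were 30.6 ± 2.61, 34.9 ± 1.95 and 48.7 ± 7.72 (SD, n = 2).

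On chromosome 20, the first was at 40645674 to 40646319, with folds of 45.2 and 46.6. Its summit had 265 fragments (234 to 299) in replicate 1 and 208 (181 to 238) in replicate 2, and a weaker shared site lay 0.692 kb away. The second, at 35092596 to 35093498, had folds of 37.1 and 37.8. Next came a site at 35752617 to 35753493 with folds of 34.8 and 34.4, and close by lay a site at 35767344 to 35767935 with 34.99 and 32.6. On the first arm lay a site at 4636329 to 4636957, with folds of 37.9 and 34.1, and one at 583097 to 583586, with 30.3 and 32.6. The latter was in the outermost window of 1 Mb, which had 37 shared sites. Their nearest shared sites were 0.929 and 1.24 kb away. At the other end of the scale, the weakest shared site on chromosome 10, at 47486063 to 47486450, had folds of 2.49 and 5.32, and that on chromosome 20, at 36333053 to 36333347, had 4.45 and 2.60.

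Peaks without a counterpart were weak on both chromosomes. The 443 on chromosome 10 and 373 on chromosome 20 in replicate 1 had median folds of 4.59 and 4.63, and the 129 and 113 in replicate 2 had 4.59 and 4.68. None reached 10-fold in either replicate. The strongest in replicate 1 were a peak on chromosome 10 at 1623125 to 1623589, with a fold of 9.70, and a peak on chromosome 20 at 46458138 to 46458492, with 9.29. In replicate 2 they were a peak on chromosome 10 at 46348040 to 46348334, with a fold of 7.10, and a peak on chromosome 20 at 27124515 to 27124863, with 8.03. Recovery of replicate 1 peaks was 65.7% (95% Wilson interval 59.3 to 71.5) in the central 50% of chromosome 20 and 73.7% (66.6 to 79.7) in that of chromosome 10. In the last 25% it was 72.2% and 72.4%. The smallest overlap that made a site shared was 28 bp on chromosome 10 (folds of 3.86 and 4.54) and 64 bp on chromosome 20 (3.21 and 4.41). The nearest miss was a chromosome 10 peak with a fold of 4.28 that lay 4 bp from a replicate 2 peak, and on chromosome 20 one with a fold of 4.26 at 40 bp. Replicate 2 also had 1 peak on chromosome 10 and 4 on chromosome 20 with a recovered background over 20 fragments, where the genome gave 0.416%. Replicate 1 had none on either chromosome, where the genome gave 0.0161%. None of the 5 was shared.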

How the data were processed

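Per the labels' protocols, embryos were crosslinked in 1% formaldehyde for 10 minutes, chromatin was sheared to 100 to 500 bp, 2 µg of antibody was used and libraries had 15 PCR cycles. Bowtie 0.12.7 and MACS2 were used, per the submitters' processing notes, and peaks were deposited per ChIP replicate. The authors' deposited values for each peak are a linear fold (ratio) over background, −log10 of the p-value and q-value, a score that repeats the q, and the summit position. Lowest −log10 q values were 2.05 and 2.16.

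Read totals were not given. Each peak was given the whole number of fragments k and the background λ that meet its fold, as (k + 1)/(λ + 1), and its p-value, as the Poisson tail above k, with deviations of at most 0.0721% and 0.581% of a step in replicates 1 and 2. This relies on the known arithmetic of MACS2, and amplified reads are not independent molecules. Matching and recovery were tested on simulated data. Samples were grouped by title, which numbers the ChIP samples with the prefix br, read here as biological replicate. No label says whether they came from separate plants, so their spread may be technical. Counterparts were the overlapping peak with the nearest summit. Parts of a chromosome are shares of its length, since centromere positions were not used. Named were the 10 shared sites with the highest lower fold, the widest and weakest, the densest window, the longest run and gap, and the strongest unshared peaks. The weakest site, the blocks and 15 Mb ends, and the limits for strong, broad and like-strength sites were added after the values were seen. Members, lists and tests were chosen with earlier results of these data known. Intervals are 95% exact Poisson or Wilson. Alternatives were another overlap rule, the mean of paired within-library values, a −log10 q of at least 10, each replicate alone, other parts, neighbour distances of 1 and 5 kb and other measures of strength. Python 3.11.15 was run with pandas 2.3.3, scipy 1.17.1, numpy 2.4.6 and, for figures, matplotlib 3.10.9.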

Additional observations from a re-analysis of the deposited data

Results flagged for a closer look

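The order of the chromosomes changed along their length in every ChIP library, which drew attention although the difference between parts was not tested. The ratio of chromosome 10 to 20 in peaks per Mb was 2.36 in replicate 1 and 2.45 in replicate 2 in the first 25%, 1.05 and 1.04 in the last 25%, and 0.691 and 0.722 in the central 50%. Of the shared sites in the central 50%, 50.8% on chromosome 10 and 60.9% on chromosome 20 lay within 15 Mb of the last end, so the position of the boundary enters the central ratio.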

How the results depend on the processing

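The ratio of chromosome 10 to 20 in shared sites per Mb stayed above 2 at the first end and below 1 in the central 50% in all alternatives run, while the last-end ratio and the share of close neighbours changed direction in some. The first-end ratio of 2.52 went to 2.44 with summits within 100 bp, 2.18 with a −log10 q of at least 10, 2.71 with 10 Mb at each end, 2.34 with each chromosome divided at its middle and 2.67 with 15 Mb at each end, and to 2.36 and 2.45 with all peaks of replicates 1 and 2 alone. The last-end ratio of 1.05 went to 1.02 with reciprocal overlap of 50%, 1.01 with summits within 100 bp, 1.12 with 10 Mb and 1.07 with 15 Mb. It turned to 0.953 with a −log10 q of at least 10 and to 0.985 with the division at the middle, and each replicate alone gave 1.04 to 1.05. The central ratio of 0.776 went to 0.751 with summits within 100 bp, 0.918 with 10 Mb, 0.832 with 15 Mb, and 0.691 to 0.722 with each replicate alone. For sites with a neighbour within 2 kb, chromosome 10 minus chromosome 20 was 2.31 percentage points. It was 0.422 with summits within 100 bp, 0.829 with a −log10 q of at least 10, and turned to -0.782 with replicate 1 alone, against 0.719 with replicate 2 alone. The width difference of -17 bp was -1.5 bp with a −log10 q of at least 10 and -12 to -10 bp with each replicate alone. The fold ratio of 0.938 was 0.976 with a −log10 q of at least 10, 0.900 with −log10 q as strength, and 0.952 to 0.983 with each replicate alone. With a −log10 q of at least 10 chromosome 10 kept 738 shared sites, by construction of the limit. The cause of the other changes was not tested. Of 64 recomputed values, 33 stayed within the spread between replicates (counts within 1.5 times), 28 moved beyond it and 3 changed direction. The 15 Mb ends and a run without peaks of recovered background over 20, which changed none of the 8 values it gave, were chosen after seeing the data. With a replicate block, the mean of the paired within-library values, also chosen after seeing the data, the ratios were 2.515 at the first end, 1.04 at the last and 0.777 in the central 50%, and the neighbour difference was 1.91 points. ChIP and input samples could not be paired, as the inputs have no values of their own in the peak lists. Depth limits the weak sites, since a site under the authors' calling threshold in either replicate is not listed.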
